A study of Mus musculus with 6 samples.

Results

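The glutathione and NRF2 antioxidant genes are 35 genes that keep reactive oxygen species, peroxides, electrophiles and free metals in check. They were chosen by a list of gene symbols, matched through the GENCODE M21 annotation of GRCm38 to the Ensembl identifiers of the count table, and all 35 were found among its 26579 rows. The samples were whole skin of the dorsal neck from female mice at postnatal day 33, 3 of them YAP2-5SA-∆C transgenic mice and 3 wild type littermates. The transgene encodes a mildly activated YAP protein that is made in basal keratinocytes, whereas the biopsies hold all cell types of the skin. Wild type mice received no treatment that the labels name, and the strain background is not given in the sources used here.

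In unstressed cells the ubiquitin ligase adaptor KEAP1 holds the transcription factor NRF2, the product of *Nfe2l2*, at a low level. When oxidants or electrophiles modify KEAP1, NRF2 accumulates, binds the antioxidant response element together with a small MAF protein, and raises genes that make glutathione, reduce thioredoxin and conjugate toxic compounds. In skin these enzymes protect keratinocytes, which face sunlight and air.

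In YAP2-5SA-∆C skin the glutathione S-transferase genes *Gsta4* and *Gsto1* rose, *Gsta4* to 3.98 and *Gsto1* to 1.42 times the wild type level, and the thioredoxin reductase gene *Txnrd1* fell to 0.752 times that level. These calls are by edgeR's quasi-likelihood test, which the other 32 genes did not pass, and 4 of those 32 passed its likelihood-ratio test. The regulator itself, *Nfe2l2*, was at 72.3 ± 2.64 CPM in wild type mice and at 80.3 ± 7.03 CPM in YAP2-5SA-∆C mice (mean ± SD, n = 3 each), with overlapping genotypes. The 4 genes of glutathione synthesis and recycling and both metallothionein genes had lower means in YAP2-5SA-∆C skin, without passing the quasi-likelihood test, while *Gclc* and *Mt1* among them passed the likelihood-ratio test.

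CPM is the unit of level used here, reads counted on a gene scaled to the library size and the TMM factor of each library. Between 11225705 and 19505036 reads were counted per library, so that 1 read was worth 0.0523 to 0.0951 CPM. *Yap1* had 125 to 142 CPM in wild type mice and 130 to 144 in YAP2-5SA-∆C mice, and the sources used here do not say if transgene reads fall on this gene. Every library held the keratinocytes of skin, with 3399 to 7170 CPM summed over 6 basal keratinocyte markers. YAP2-5SA-∆C replicate 2 stood apart on a multidimensional scaling plot, at 2.24 on the leading dimension against 0.26 and 0.30 for the other YAP2-5SA-∆C libraries and -1.20 to -0.51 for wild type.

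All 35 genes passed the count filter of at least 1 CPM in at least 3 libraries. By edgeR's quasi-likelihood test, 3 members of the set passed a false discovery rate (FDR, Benjamini-Hochberg over all genes tested) of 0.05, a share of 8.57%, against 1.91% of the 15102 genes tested. Of these, 2 were higher in YAP2-5SA-∆C skin, where 1.44% of all genes were called higher, and 1 was lower, where 0.464% were called lower. By the unadjusted p-value of that test 16 genes reached 0.05, a share of 45.7% beside 26.3% of all genes tested. The 26.3% is also the background for the unadjusted counts of the gene and marker lists below. The median log2 fold change of the 35 genes was 0.06, and that of all genes tested was -0.01. Of the 35, 18 had a log2 fold change above 0 and 17 below 0.

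The YAP2-5SA-∆C mice lay above all wild type mice for 8 of the 35 genes, a share of 22.9% beside 15.5% of all tested genes. They lay below for 9 genes, a share of 25.7% beside 18.2% of all tested genes. With the likelihood-ratio test that the study's methods name, 7 of the 35 genes passed, a share of 20.0% beside 10.4% of all tested genes. These were *Gsta4*, *Gsto1* and *Sod3* on the higher side, and *Gclc*, *Gpx2*, *Mt1* and *Txnrd1* on the lower side. In simulated data 25.9% of the likelihood-ratio calls at an FDR of 0.05 were false, against 10.3% of the quasi-likelihood calls. The 10.4% is also the background for the likelihood-ratio counts of the lists below. Calls by the quasi-likelihood test depended on single libraries, for these genes as for all genes tested. None of the 35 genes passed when wild type replicate 1, 2 or 3, or the transgenic replicate 3, was left out, where 16, 13, 14 and 17 reached 0.05 by the unadjusted p-value in edgeR, 1 passed without YAP2-5SA-∆C replicate 1, and 5 passed without YAP2-5SA-∆C replicate 2. Of all genes tested, 0.949% were called when wild type replicate 1 was left out, and 3841 of 14958 reached 0.05 by the unadjusted p-value. The share called was 0.577% with the transgenic replicate 1 left out and 5.46% with the transgenic replicate 2 left out. FDRs given below without the transgenic replicate 2 are to be read beside that 5.46%, against 1.91% with all libraries. In the 3 remaining fits, which lacked wild type replicate 2, wild type replicate 3 and the transgenic replicate 3, edgeR called 0 of all genes, and 2725, 2844 and 3692 reached 0.05 by the unadjusted p-value.

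**Figure D1:**
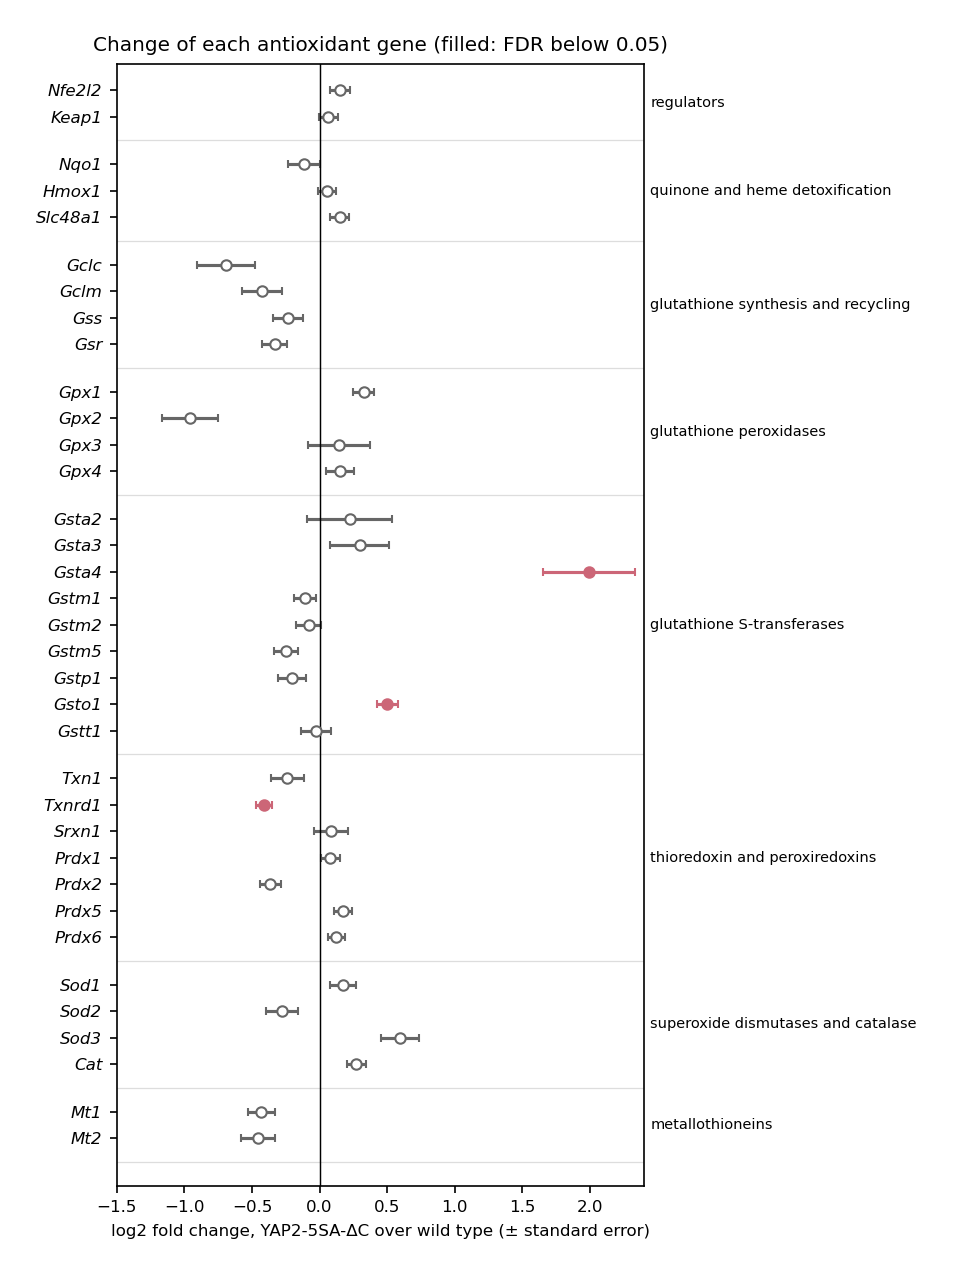
Log2 fold change of YAP2-5SA-∆C over wild type skin for the 35 genes (x axis), with its standard error, ordered by role (y axis). The 3 filled points, *Gsta4*, *Gsto1* and *Txnrd1*, passed edgeR's quasi-likelihood test at an FDR of 0.05, and the glutathione synthesis and metallothionein genes all lie left of 0.

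Glutathione S-transferases attach glutathione to electrophiles. *Gsta4* (ENSMUSG00000032348, chr9:78182774-78209349) encodes the alpha-class enzyme that prefers the reactive aldehydes of lipid peroxidation. It had 3.30, 3.04 and 4.09 CPM in wild type replicates 1, 2 and 3 and 19.4, 7.47 and 14.4 CPM in YAP2-5SA-∆C replicates 1, 2 and 3. The genotypes did not overlap, and the YAP2-5SA-∆C mice differed widely among themselves, with replicate 2 the lowest. The log2 fold change was 1.99 ± 0.34 (standard error), and edgeR gave an FDR of 0.0440 by quasi-likelihood and 9.62e-09 by likelihood ratio. Over the fits that dropped a library it stayed between 1.68 and 2.31, with a quasi-likelihood FDR of up to 0.186, and voom gave 0.0676. In wild type skin *Gsta4* ranked 31st of the 35 genes by level per exon length, and in YAP2-5SA-∆C skin 24th.

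*Gsto1* (ENSMUSG00000025068, chr19:47854970-47864790) encodes an omega-class transferase that reduces dehydroascorbate and frees proteins from bound glutathione. Its level was 32.8, 34.6 and 35.6 CPM in the wild type libraries and 44.4, 49.4 and 52.0 CPM in the YAP2-5SA-∆C libraries. All YAP2-5SA-∆C mice were higher, with little spread in either genotype. The log2 fold change was 0.50 ± 0.08 (standard error, edgeR quasi-likelihood FDR 0.0406), and it ranged from 0.45 to 0.58 over the fits without a library, with an FDR of up to 0.178. *Gsta4* and *Gsto1* share no 75-base word with annotated transcripts of another gene. Near matches and copies outside the annotated transcripts were not checked.

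The other 7 transferase genes did not pass the threshold. *Gstm5*, of the mu class, had 25.5, 29.9 and 26.1 CPM in wild type mice and 23.6, 21.4 and 23.4 in YAP2-5SA-∆C mice, without overlap (log2 fold change -0.25, standard error 0.09). The mu-class genes *Gstm1* and *Gstm2* overlapped between genotypes, with 39.0 to 46.2 and 25.9 to 26.6 CPM in wild type mice and 39.5 to 41.1 and 21.8 to 27.1 in YAP2-5SA-∆C mice. *Gstp1*, the pi-class gene that keratinocytes express, had 25.3 to 28.2 CPM in wild type mice and 19.9 to 25.5 in YAP2-5SA-∆C mice, and the theta-class gene *Gstt1* had 5.11 to 5.76 and 5.18 to 5.35 CPM. The log2 fold changes of these 5 genes lay between -0.25 and -0.03. *Gsta2* (1.33 to 2.30 and 1.44 to 3.00 CPM) and *Gsta3* (1.92 to 2.47 and 2.11 to 3.18 CPM), the close relatives of *Gsta4*, were low in both genotypes. Summed over the 9 transferase genes, the level was 162.4 to 177.6 CPM in wild type mice and 177.9 to 187.2 in YAP2-5SA-∆C mice. Of the 75-base words in *Gsta2* transcripts, 36.6% also occur in other genes, with *Gsta1* among them, and 29.2% of those of *Gstp1* occur in others, with *Gstp2* among them, and since multiply mapping reads were left out of the counts, the levels of these copies are uncertain and may be understated.

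**Figure D2:**
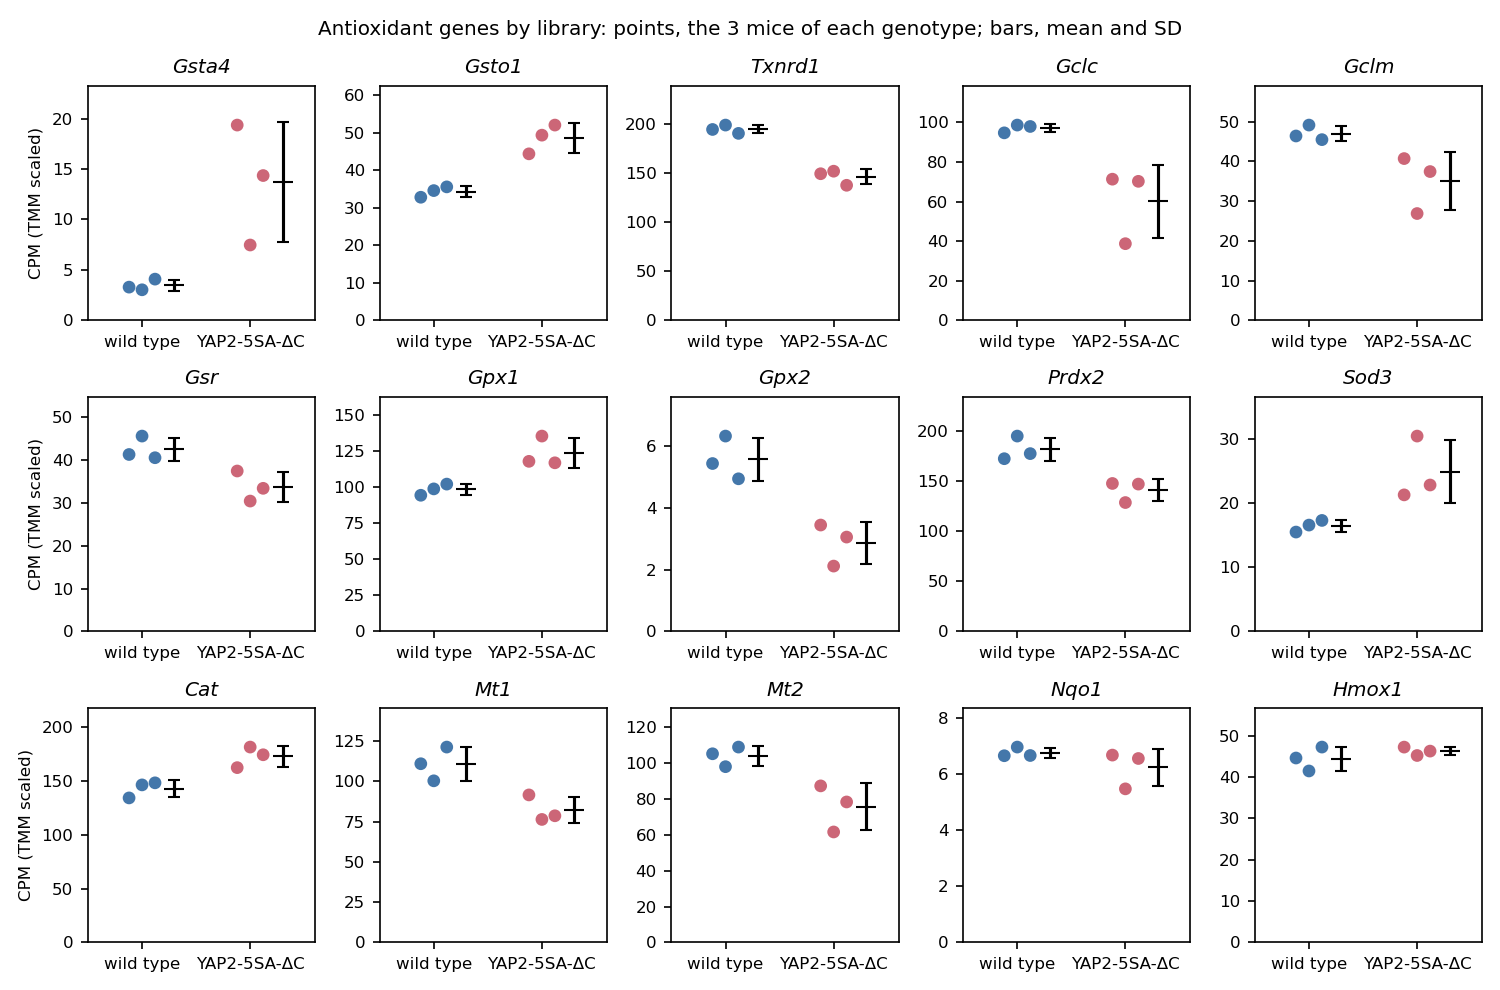
CPM (y axis, from 0) of 15 antioxidant genes in the 3 wild type (left, blue) and 3 YAP2-5SA-∆C libraries (right, red), with mean and SD beside the points. *Gsta4* spreads from 7.47 to 19.4 CPM in YAP2-5SA-∆C skin, *Gclc* has its lowest point in YAP2-5SA-∆C replicate 2, and *Nqo1* and *Hmox1* overlap between genotypes.

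The thioredoxin system passes electrons from NADPH to protein disulfides and peroxiredoxins. *Txnrd1* (ENSMUSG00000020250, chr10:82833951-82897712), the cytosolic thioredoxin reductase and a selenoprotein, had 195, 199 and 191 CPM in the wild type libraries and 149, 152 and 138 CPM in the YAP2-5SA-∆C libraries. Every YAP2-5SA-∆C mouse was lower, and the 3 mice of each genotype lay close together. The log2 fold change was -0.41 ± 0.06 (standard error), and edgeR gave an FDR of 0.0398 by quasi-likelihood and 0.0279 by likelihood ratio. It lay between -0.42 and -0.37 when each library was left out, with an FDR of up to 0.178 in edgeR. Its substrate thioredoxin, *Txn1*, had 70.3, 80.0 and 74.0 CPM in wild type mice and 61.5, 53.7 and 74.9 in YAP2-5SA-∆C mice, where replicate 3 lay within the wild type range.

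Peroxiredoxins reduce peroxides with a reactive cysteine, and their genes differed in sign. *Prdx2* (log2 fold change -0.36, standard error 0.08) had 172, 195 and 178 CPM in wild type mice and 148, 129 and 147 in YAP2-5SA-∆C mice. All YAP2-5SA-∆C mice were lower, but the FDR was 0.0600 in edgeR's quasi-likelihood test. *Prdx2* is abundant in red blood cells, and the summed level of 7 erythroid markers went from 102 to 154 CPM in wild type to 43.2 to 101 CPM in YAP2-5SA-∆C skin, with none of the 7 at 0. Of the 6 erythroid markers that were tested, 0 passed edgeR's quasi-likelihood test, while 3 reached 0.05 by the unadjusted p-value and 3 passed the likelihood-ratio test. The part of blood in the *Prdx2* difference was not tested.

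*Prdx5*, found in mitochondria and peroxisomes, had 131 to 142 CPM in wild type mice and 146 to 163 in YAP2-5SA-∆C mice (log2 fold change 0.18, standard error 0.07). *Prdx6*, which also reduces phospholipid peroxides, had 47.3 to 51.8 and 53.0 to 55.8 CPM. For both genes the YAP2-5SA-∆C mice lay above the wild type mice by a margin that did not pass the test. *Prdx1* (173 to 202 and 191 to 199.6 CPM) and the sulfiredoxin gene *Srxn1* (20.0 to 27.6 and 24.0 to 27.0 CPM), which restores overoxidised peroxiredoxins, overlapped between genotypes. Summed over the 7 genes of the thioredoxin and peroxiredoxin group, the level was 820 to 897 CPM in wild type mice and 772 to 791 in YAP2-5SA-∆C mice.

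Glutathione is made by glutamate-cysteine ligase, whose catalytic and modifier subunits are encoded by *Gclc* and *Gclm*, and by glutathione synthetase, encoded by *Gss*. Glutathione reductase, encoded by *Gsr*, restores it after oxidation. *Gclc* (ENSMUSG00000032350, chr9:77754535-77794485) had 94.8, 98.7 and 98.0 CPM in the wild type libraries and 71.4, 38.8 and 70.3 CPM in the YAP2-5SA-∆C libraries. The wild type mice agreed closely, and YAP2-5SA-∆C replicate 2 was far below the other YAP2-5SA-∆C mice. The log2 fold change was -0.69 ± 0.22 (standard error), and edgeR gave an FDR of 0.106 by quasi-likelihood and 0.0192 by likelihood ratio. Without YAP2-5SA-∆C replicate 2 the log2 fold change was smaller, at -0.44, and passed the quasi-likelihood test of edgeR with an FDR of 0.0152. That fit called 5.46% of all genes tested, against 1.91% with all libraries. When any other library was left out, the quasi-likelihood FDR of *Gclc* was 0.121 to 0.256.

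*Gclm* followed the same order of libraries in YAP2-5SA-∆C skin, with 46.4, 49.1 and 45.5 CPM in wild type and 40.7, 26.9 and 37.4 CPM in YAP2-5SA-∆C mice. Its log2 fold change of -0.42 ± 0.15 (standard error) had an edgeR quasi-likelihood FDR of 0.130. Without YAP2-5SA-∆C replicate 2 it was smaller, at -0.25, with an FDR of 0.113 in edgeR. *Gsr* had 41.3, 45.6 and 40.5 CPM in wild type mice and 37.4, 30.4 and 33.4 in YAP2-5SA-∆C mice (log2 fold change -0.33, standard error 0.09, edgeR quasi-likelihood FDR 0.0868). *Gss* was low and overlapped between genotypes, with 12.6 to 14.7 CPM in wild type mice and 10.7 to 13.1 in YAP2-5SA-∆C mice. Summed over these 4 genes, the level was 197 to 208 CPM in wild type mice and 107 to 163 in YAP2-5SA-∆C mice. None of the 4 passed edgeR's quasi-likelihood test. By its unadjusted p-value 3 reached 0.05, beside 26.3% of all genes tested. The likelihood-ratio test was passed by 1, *Gclc*, beside 10.4% of all genes tested.

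The library with the lowest *Gclc* and *Gclm*, YAP2-5SA-∆C replicate 2, also had the lowest hair follicle signal. The summed level of 16 hair shaft and inner root sheath markers was 14548 to 18968 CPM in wild type, and 7627, 1532 and 9646 CPM in YAP2-5SA-∆C replicates 1, 2 and 3. All 16 markers were lower in every YAP2-5SA-∆C mouse than in every wild type mouse, and none was at 0. By the quasi-likelihood method of edgeR 0 of the 16 passed, 15 reached 0.05 by the unadjusted p-value, and 15 passed the likelihood-ratio test. The 7 melanocyte markers summed to 434 to 508 CPM in wild type mice and to 275, 156 and 262 CPM in YAP2-5SA-∆C replicates 1, 2 and 3, so they too were lowest in replicate 2. All 7 were lower in every YAP2-5SA-∆C mouse, none was at 0, 2 passed edgeR's quasi-likelihood test and 7 its likelihood-ratio test. In whole skin, fewer cells of a type and less RNA per cell cannot be told apart, and the part of hair follicle cells and melanocytes in the differences of *Gclc*, *Gclm* and *Gsr* was not tested.

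**Figure D3:**
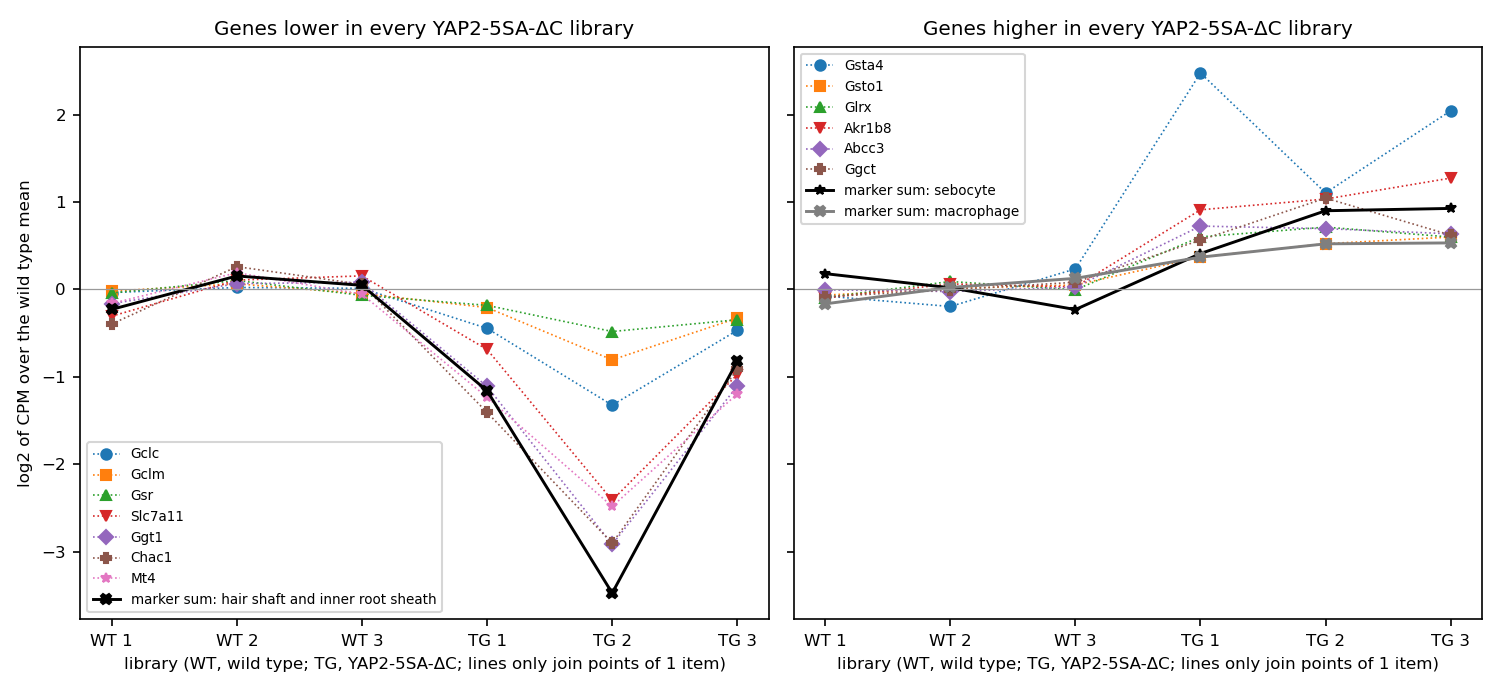
Log2 of the CPM over the wild type mean (y axis) in each library (x axis) for 7 genes that were lower (left) and 6 that were higher (right) in every YAP2-5SA-∆C library, beside summed marker levels (solid lines). The 7 genes plotted on the left (*Gclc*, *Gclm*, *Gsr*, *Slc7a11*, *Ggt1*, *Chac1* and *Mt4*) have their lowest point in YAP2-5SA-∆C replicate 2, unlike *Txnrd1*, which is not plotted and was lowest in replicate 3. In replicate 2 the hair marker sum is at -3.48 and *Gclc* at -1.33, and on the right *Gsta4* is lowest among the YAP2-5SA-∆C libraries in that same replicate, at 1.10.

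Glutathione peroxidases use glutathione to reduce peroxides, and the 4 genes differed in direction. *Gpx1* (ENSMUSG00000063856, chr9:108338903-108340343), the widely expressed cytosolic enzyme, had 94.4, 98.9 and 102 CPM in wild type mice and 118, 135 and 117 in YAP2-5SA-∆C mice. Each YAP2-5SA-∆C mouse was higher, with a log2 fold change of 0.33 ± 0.08 (standard error, edgeR quasi-likelihood FDR 0.0623). *Gpx2* (ENSMUSG00000042808), the epithelial form and a known NRF2 target, had 5.44, 6.33 and 4.95 CPM in wild type mice and 3.45, 2.12 and 3.06 in YAP2-5SA-∆C mice. It had the lowest log2 fold change among the 35 genes, a value of -0.96 ± 0.20 (standard error) and edgeR gave an FDR of 0.0584 by quasi-likelihood and 0.000706 by likelihood ratio. The secreted form *Gpx3* varied among wild type mice, with 19.7, 33.8 and 33.9 CPM, and had 25.8, 35.2 and 35.4 CPM in YAP2-5SA-∆C mice. *Gpx4*, which repairs lipid peroxides in membranes and blocks ferroptosis, had 92.9 to 111 and 102 to 126 CPM, with overlap. Of its 75-base words, 29.8% occur in other genes. The 4 peroxidase genes summed to 215 to 250 CPM in wild type mice and 249 to 281 in YAP2-5SA-∆C mice, with overlap.

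Superoxide dismutases turn superoxide into hydrogen peroxide, which catalase breaks down. The extracellular form *Sod3* (ENSMUSG00000072941, chr5:52363791-52371418) had 15.5, 16.6 and 17.3 CPM in wild type mice and 21.3, 30.5 and 22.8 in YAP2-5SA-∆C mice. All YAP2-5SA-∆C mice were higher and replicate 2 was the highest. The log2 fold change was 0.60 ± 0.14 (standard error), and edgeR gave an FDR of 0.0655 by quasi-likelihood and 0.0141 by likelihood ratio. Without YAP2-5SA-∆C replicate 2 it was 0.44, and edgeR's quasi-likelihood FDR was 0.0460. When any other library was left out, that FDR was 0.0709 to 0.206.

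*Cat*, which encodes the peroxisomal catalase, had 134, 146 and 148 CPM in wild type mice and 162, 181 and 174 in YAP2-5SA-∆C mice (log2 fold change 0.27, standard error 0.07, edgeR quasi-likelihood FDR 0.0699). The genotypes did not overlap for *Cat*. Sebocytes are rich in the peroxisomes that hold catalase, and the summed level of 9 sebocyte markers was 2759 to 3669 CPM in wild type mice and 4304 to 6157 in YAP2-5SA-∆C mice, with none of the 9 at 0, 8 above all wild type mice and 1 past edgeR's quasi-likelihood test. Its part in the *Cat* difference was not tested. The mitochondrial form *Sod2* had 84.2 to 103 CPM in wild type mice and 68.5 to 89.4 in YAP2-5SA-∆C mice, and the cytosolic form *Sod1* had 35.3 to 40.6 and 38.7 to 47.4 CPM. Both overlapped between genotypes, *Sod2* with a log2 fold change of -0.28 (-0.17 without YAP2-5SA-∆C replicate 2) and *Sod1* with 0.17 (0.27 without the transgenic replicate 1 and 0.11 without the transgenic replicate 3). Summed with *Sod3* and *Cat* they came to 273 to 307 CPM in wild type mice and 300.4 to 334 in YAP2-5SA-∆C mice, with overlap.

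Metallothioneins are small cysteine-rich proteins that bind zinc and copper, and their genes respond to metals through the factor MTF1 and to oxidants. *Mt1* (ENSMUSG00000031765, chr8:94179082-94180327) and *Mt2* (ENSMUSG00000031762, chr8:94172664-94173568) are neighbours on chromosome 8. *Mt1* had 111, 100.4 and 121 CPM in wild type mice and 91.7, 76.4 and 78.7 in YAP2-5SA-∆C mice. *Mt2* had 105, 97.9 and 109 CPM in wild type mice and 87.2, 61.5 and 78.3 in YAP2-5SA-∆C mice. All YAP2-5SA-∆C mice were below all wild type mice for both genes, with log2 fold changes of -0.43 ± 0.10 (standard error) and -0.46 ± 0.13 (standard error). The edgeR quasi-likelihood FDRs were 0.0620 and 0.0824, and those of its likelihood-ratio test 0.0488 and 0.0570. Both genes were lowest in YAP2-5SA-∆C replicate 2, as were the hair and melanocyte marker sums given above, and the part of those cells was not tested. An antisense gene that has no row in the count table overlaps 73.5% of the exon bases of *Mt2*. Genes of the other strand that do have a row cover 19.1% of the exon bases of *Prdx5*, 13.9% of those of *Gstm5* and 10.9% of those of *Keap1*. For *Prdx2* they are *Junb* (5.67%) and *Rnaseh2a* (5.80%), and for *Gss* they are *Acss2* (6.68%), *Gssos1* (5.44%) and *Gssos2* (6.51%). The strand setting of the counting is not stated.

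Of the genes at the top of the pathway, *Nfe2l2* had 73.5, 74.1 and 69.3 CPM in wild type mice and 73.1, 80.7 and 87.2 in YAP2-5SA-∆C mice (log2 fold change 0.15, standard error 0.08, edgeR quasi-likelihood FDR 0.258). *Keap1* had 33.9 to 38.3 and 37.2 to 39.5 CPM, with overlap. The *Nfe2l2* log2 fold change was 0.24 without the transgenic replicate 1 and 0.09 without the transgenic replicate 3. NRF2 is controlled mainly through the stability of its protein, which RNA counts do not show. *Nqo1*, the quinone reductase commonly read as a marker of NRF2 activity, had 6.65, 6.96 and 6.66 CPM in wild type mice and 6.67, 5.47 and 6.55 in YAP2-5SA-∆C mice, a log2 fold change of -0.12 ± 0.12 (standard error), or -0.02 without the transgenic replicate 2. *Hmox1*, which breaks down heme, had 44.6, 41.5 and 47.3 CPM in wild type against 47.3, 45.2 and 46.3 CPM in YAP2-5SA-∆C mice (log2 fold change 0.06, standard error 0.07, ranging from 0.01 with wild type replicate 2 left out to 0.11 with wild type replicate 3 left out). For *Nqo1* and *Hmox1* the difference between genotypes was smaller than its standard error, and for both the genotypes overlapped. *Slc48a1*, which moves heme out of lysosomes, was slightly higher in each YAP2-5SA-∆C mouse, with 38.0 to 42.4 CPM in wild type mice and 42.6 to 45.8 in YAP2-5SA-∆C mice, and did not pass the test (edgeR quasi-likelihood FDR 0.227). The sum of *Nqo1*, *Hmox1* and *Slc48a1* was 86.5 to 93.7 CPM in wild type mice and 93.9 to 98.7 in YAP2-5SA-∆C mice.

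Divided by exon length, the 35 genes spanned levels from 0.526 (*Gsta3*) to 177 CPM per kb (*Mt2*) in wild type skin. *Mt2*, *Mt1* (89.0 CPM per kb), *Txn1* (71.1), *Gpx1* (68.3) and *Prdx5* (63.2) led the order, followed by *Prdx1*, *Prdx2*, *Gpx4* and *Cat* between 54.7 and 60.9 CPM per kb. In YAP2-5SA-∆C skin the same 9 genes held the highest places in another order, with *Mt2* at 129 CPM per kb, *Gpx1* at 85.7 CPM per kb and *Prdx5* and *Cat* in place of *Mt1* and *Txn1* among the leading 4. *Nqo1* was low in both genotypes, at 4.35 and 4.01 CPM per kb. The exon length counts the bases of all annotated transcripts, so that the level of a gene with a rarely used long exon is understated.

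**Figure D4:**
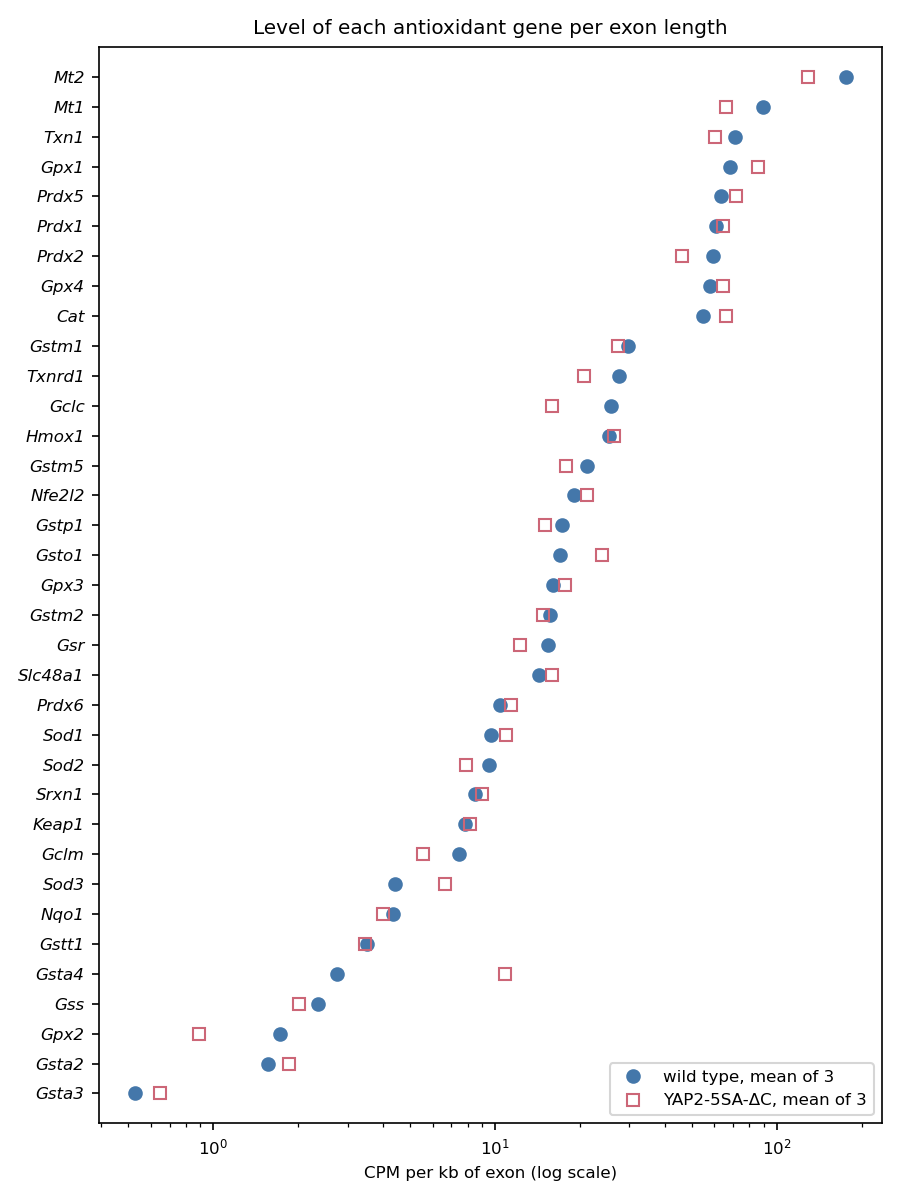
Mean CPM per kb of exon (x axis, log scale) of the 35 genes in wild type (filled circles) and YAP2-5SA-∆C skin (open squares), ordered by the wild type level. *Gsta4* moves from 2.74 to 10.8 CPM per kb, and the metallothionein genes stay at or near the top.

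NRF2 binds the antioxidant response element, whose core was searched as TGACNNNGC on both strands of the RefSeq promoter windows of GRCm38.p6, from 250 bases before to 50 bases after each gene start. Windows were found for 28 of the 35 genes, and 9 of the 28 held the core, a share of 32.1%, beside 14.0% of all 27025 genes with a window. All 9 are shown. Of these, *Txnrd1* fell and the other 8 passed neither test of edgeR, although *Mt2* passed DESeq2 (FDR 0.0148). *Gclm*, *Gstm5* and *Mt2* also had log2 fold changes below 0, and *Prdx1*, *Gsta3*, *Nfe2l2*, *Sod1* and *Srxn1* had values above 0, between 0.08 and 0.30. Over the fits without a library, that of *Prdx1* ranged from 0.04 to 0.15 and that of *Gsta3* from 0.19 to 0.49. The capitals mark the core, written on the strand of the gene. In *Txnrd1*, *Gclm*, *Prdx1*, *Sod1* and *Srxn1* the core lies on the other strand and reads as its reverse complement.
*Txnrd1*, chr10:82859104-82859132, plus strand: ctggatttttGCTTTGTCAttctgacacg
*Gclm*, chr3:122245413-122245441, plus strand: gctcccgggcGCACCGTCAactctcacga
*Gstm5*, chr3:107895802-107895830, plus strand: caccgcccacTGACCACGCggagggcggg
*Mt2*, chr8:94172529-94172557, plus strand: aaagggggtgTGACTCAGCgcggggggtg
*Prdx1*, chr4:116685456-116685484, plus strand: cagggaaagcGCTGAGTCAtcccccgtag
*Gsta3*, chr1:21240454-21240482, plus strand: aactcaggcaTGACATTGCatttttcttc
*Nfe2l2*, chr2:75704885-75704913, minus strand: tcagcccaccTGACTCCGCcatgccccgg
*Sod1*, chr16:90220696-90220724, plus strand: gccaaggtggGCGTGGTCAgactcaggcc
*Srxn1*, chr2:152105542-152105570, plus strand: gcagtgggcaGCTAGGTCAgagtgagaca
*Mt2* and *Prdx1* hold the same 9 letters on opposite strands, which contain the AP-1 site TGACTCA, beside log2 fold changes of -0.46 and 0.08. The *Txnrd1* match lies 92 bases before 1 of 3 annotated starts in the table. *Nqo1* and *Gsto1* held no such letters in their windows. *Gclc*, *Gsr*, *Hmox1*, *Prdx6*, *Slc48a1*, *Gsta4* and *Sod3* were not in the table.

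The metal response element, bound by MTF1, was searched with the cores TGCACNC and TGCGCNC on both strands of the same windows. Of the 28 genes with a window 8 held a core, a share of 28.6% beside 28.2% of all genes. These were *Mt1*, *Mt2*, *Gclm*, *Gsta2*, *Gstm1*, *Gstm5*, *Gstt1* and *Srxn1*. The 2 metallothionein genes, which were both lower in each YAP2-5SA-∆C mouse, held 3 (*Mt1*) and 4 (*Mt2*) such cores, whereas 7.11% of all 32851 windows held at least 2 and 25.7% held at least 1. Those shown lie before the gene start, with the core in capitals.
*Mt1*, chr8:94179056-94179082, plus strand: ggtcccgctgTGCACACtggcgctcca
*Mt2*, chr8:94172385-94172411, plus strand: gcatcgcctcTGCACCCggcccctcgg
*Mt2*, chr8:94172480-94172506, plus strand: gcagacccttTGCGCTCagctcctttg
*Mt2*, chr8:94172558-94172584, plus strand: gggggagggcGTGTGCAggctctgtcc
In *Gclm*, which held 3, the core farthest from the start overlaps the antioxidant core printed above. The gene of the factor itself, *Mtf1*, overlapped between genotypes, with a log2 fold change of 0.04 and a standard error of 0.11.

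The wider pathway was read from 96 further genes in 7 lists, of which 91 passed the count filter. By edgeR's quasi-likelihood test 6 (6.59%) were called, all on the higher side, beside 1.91% of all genes tested, and the median log2 fold change of the 91 was 0.08. They included *Glrx*, *Akr1b8*, *Abcc3*, *Ggct* and *Cybb*. Without YAP2-5SA-∆C replicate 2, 16 pathway genes were called, without wild type replicate 1 there were 3, and 0 were called when wild type replicate 2 or 3, or the transgenic replicate 3, was left out, where 35, 33 and 35 reached 0.05 by the unadjusted p-value. The shares of all genes called in those fits were 5.46%, 0.949% and 0 in the same order. In the 3 fits with 0 calls, 2725 of 14981, 2844 of 14999 and 3692 of 14925 genes reached 0.05 by the unadjusted p-value.

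Among 21 tested genes of other glutathione enzymes, *Glrx*, the glutaredoxin that removes glutathione from proteins, rose. It had 41.5, 47.2 and 44.1 CPM in wild type mice and 67.2, 72.6 and 67.1 in YAP2-5SA-∆C mice, a log2 fold change of 0.64 ± 0.07 (standard error, edgeR quasi-likelihood FDR 0.0300). The microsomal transferase genes *Mgst3* (log2 fold change -0.75, standard error 0.15) and *Mgst2* (0.67, standard error 0.16) had opposite signs. Neither passed edgeR's quasi-likelihood test with all libraries, and both passed its likelihood-ratio test (FDR 0.00116 and 0.00711). *Mgst3* passed the former without YAP2-5SA-∆C replicate 2 (log2 fold change -0.58, edgeR quasi-likelihood FDR 0.0188). Of 19 tested genes for iron, heme and conjugate handling, *Akr1b8*, an aldo-keto reductase, and *Abcc3*, an exporter of glutathione and glucuronide conjugates, rose. *Akr1b8* had 5.66, 6.33 and 6.18 CPM in wild type against 11.4, 12.4 and 14.7 CPM in YAP2-5SA-∆C mice (log2 fold change 1.08, standard error 0.12), and *Abcc3* had 4.56, 4.50 and 4.66 CPM in wild type against 7.56, 7.41 and 7.11 CPM in YAP2-5SA-∆C mice (log2 fold change 0.69, standard error 0.10). The metallothionein *Mt4*, which marks stratified epithelium, had 54.2, 69.2 and 58.3 CPM in wild type mice and 25.8, 10.8 and 26.5 in YAP2-5SA-∆C mice, and edgeR gave an FDR of 0.0557 by quasi-likelihood, 0.00851 without replicate 2 of the transgenic mice, and 5.59e-06 by likelihood ratio.

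Of 12 genes for cystine uptake and glutathione breakdown, *Ggct*, which opens gamma-glutamyl peptides, was called, with 89.2, 94.3 and 100.1 CPM in wild type mice and 139.8, 195 and 145 in YAP2-5SA-∆C mice (log2 fold change 0.76, standard error 0.13). *Oplah*, the next enzyme of that route, had 68.7 to 84.4 and 50.8 to 57.6 CPM, and *Slc3a2*, the heavy chain of the cystine transporter, had 87.8 to 97.4 and 60.4 to 75.3 CPM. Both were lower in each YAP2-5SA-∆C mouse, with edgeR quasi-likelihood FDRs of 0.0504 and 0.0620. *Slc7a11*, the light chain of that transporter, *Ggt1*, which splits extracellular glutathione, and *Chac1*, which degrades glutathione in the cytosol, were chosen for description after their values were seen. *Slc7a11* had 31.4, 41.9 and 43.3 CPM in wild type mice and 24.1, 7.30 and 19.8 in YAP2-5SA-∆C mice. *Ggt1* had 25.5, 29.8 and 30.2 CPM in wild type against 13.2, 3.77 and 13.2 CPM in YAP2-5SA-∆C mice, and *Chac1* 58.9, 92.9 and 80.7 CPM in wild type against 29.2, 10.4 and 41.2 CPM in YAP2-5SA-∆C mice. For all 3 the lowest library was YAP2-5SA-∆C replicate 2, in which the hair and melanocyte markers were lowest too. Their edgeR quasi-likelihood FDRs were 0.121, 0.0844 and 0.0942 with all libraries and 0.0392, 0.00851 and 0.0381 without that replicate. When any other library was left out, they were 0.112 to 0.281 (*Slc7a11*), 0.112 to 0.225 (*Ggt1*) and 0.0971 to 0.253 (*Chac1*). The part of the hair follicle and of melanocytes was not tested. By edgeR's likelihood-ratio test with all libraries the FDRs were 0.00571, 0.000451 and 0.00104, and 5 of the 12 genes passed it, 1 higher and 4 lower.

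None of the 12 tested NRF2 partners, competitors and degradation factors passed edgeR's quasi-likelihood test. By its unadjusted p-value 4 reached 0.05, and 1, *Nfe2l3*, passed the likelihood-ratio test. Of all genes tested 26.3% reached 0.05 by that p-value and 10.4% passed the likelihood-ratio test, the background for this list and the next lists. *Bach1*, the repressor that competes with NRF2 for its sites, had 70.8, 62.1 and 67.3 CPM in wild type mice and 81.5, 88.0 and 82.7 in YAP2-5SA-∆C mice (log2 fold change 0.33, standard error 0.07, edgeR quasi-likelihood FDR 0.0555). *Nfe2l3*, an NRF2 relative, had 66.7 to 78.7 and 36.6 to 53.7 CPM (edgeR quasi-likelihood FDR 0.0622). Its FDR was 0.0317 without YAP2-5SA-∆C replicate 2 and 0.0802 to 0.202 when any other library was left out. *Maff*, a small MAF partner, had 9.40 to 11.4 and 7.53 to 8.55 CPM. None of the 6 NADPH supply genes passed either, while 3 reached 0.05 by the unadjusted p-value and 1, *Me1*, passed the likelihood-ratio test of edgeR. They included *G6pdx* (126 to 146 and 97.1 to 117 CPM), *Me1* (135 to 161 and 159.6 to 249 CPM) and *Pgd* (52.0 to 59.6 and 59.9 to 70.1 CPM). Of the 13 other thioredoxin and peroxiredoxin genes, 0 passed edgeR's quasi-likelihood test, 3 reached 0.05 by the unadjusted p-value and 1, *Sesn3*, passed the likelihood-ratio test. *Sesn3* had 36.5 to 39.9 and 19.7 to 28.8 CPM (edgeR quasi-likelihood FDR 0.0530, or 0.0392 without YAP2-5SA-∆C replicate 2), and the methionine sulfoxide reductase genes *Msrb3* and *Msrb1* had log2 fold changes of -0.26 and 0.24.

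The 8 tested genes of oxidant-producing enzymes all had log2 fold changes above 0, and 2 passed edgeR's quasi-likelihood test. *Cybb*, the catalytic subunit of the phagocyte NADPH oxidase, had 13.5, 14.0 and 16.4 CPM in wild type mice and 23.5, 20.9 and 21.8 in YAP2-5SA-∆C mice (log2 fold change 0.60, standard error 0.10, edgeR quasi-likelihood FDR 0.0437). *Ncf4* had 1.67 to 2.36 and 3.35 to 4.18 CPM (edgeR quasi-likelihood FDR 0.0535, or 0.0396 without YAP2-5SA-∆C replicate 2). *Cybb* and *Ncf4* belong to the oxidase of phagocytes. The summed level of 9 macrophage markers was 535 to 655 CPM in wild type mice and 775 to 868 in YAP2-5SA-∆C mice, with all 9 higher in each YAP2-5SA-∆C mouse, none at 0 and 2 past edgeR's quasi-likelihood test. The neutrophil markers summed to 16.6 to 51.9 CPM in wild type mice and 37.2 to 85.7 in YAP2-5SA-∆C mice, with overlap, and of the 4 that were tested 1 passed edgeR's quasi-likelihood test and 2 its likelihood-ratio test. Of the 6 neutrophil markers in the table none was at 0. *S100a8* and *S100a9* are in this list and also among the stress keratinocyte markers below, so that these sums are not separate measures. The part of macrophages and neutrophils in the *Cybb* and *Ncf4* differences was not tested.

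Markers of other cells in the biopsies differed between genotypes as well. Summed basal keratinocyte markers were 3399 to 4122 CPM in wild type mice and 5618 to 7170 in YAP2-5SA-∆C mice, and 1 of the 6 passed edgeR's quasi-likelihood test. Suprabasal keratinocyte markers summed to 4772 to 5712 and 6490 to 11453 CPM, with 1 of 7 tested past that test. Mast cell markers summed to 155 to 174 and 199 to 250 CPM, with 1 of 6 tested past it. The 8 stress keratinocyte markers summed to 1223 to 1625 CPM in wild type and to 2195, 1348 and 2546 CPM in YAP2-5SA-∆C replicates 1, 2 and 3, with 3 of the 8 past that test. *Gsta4* was likewise lowest in replicate 2 among the YAP2-5SA-∆C mice, and the part of these cells in its difference was not tested. Skeletal muscle markers ranged from 1394 to 6797 CPM in wild type mice and from 1341 to 3447 in YAP2-5SA-∆C mice, and adipocyte markers from 893 to 1178 and from 832 to 1232 CPM, both with overlap. Fibroblast markers summed to 9485 to 12846 CPM in wild type mice and to 14395, 16001 and 12305 CPM in YAP2-5SA-∆C replicates 1, 2 and 3. These overlapped too, and 0 of the 7 passed edgeR's quasi-likelihood test.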

How the data were processed

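RNA-Seq counts of 3 wild type and 3 YAP2-5SA-∆C skin libraries were used. Raw counts by Ensembl identifier were what the authors deposited, after alignment with TopHat2 2.0.12 and Bowtie2 2.1.0 on GRCm38 (submitters' processing notes) and counting of the reads that mapped to a single place with HTSeq-count. Its annotation release and strand setting are not given in the sources used here. The kit is labelled as stranded.

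The test covered genes at 1 CPM or more in at least 3 libraries, after TMM scaling with edgeR 4.0.16 (glmQLFit, glmQLFTest, genotype as the only term) in R 4.3.3. The standard error was the absolute log2 fold change over the square root of F. Alternatives were the edgeR likelihood-ratio test, voom (limma 3.58.1), DESeq2 1.42.0, other scalings and filters, a replicate block, and each library left out. The scripts were tested on simulated data. Names, exon lengths and positions came from GENCODE M21, in which 558 identifiers are absent. Members, lists and motifs were chosen with earlier results of these data known. All 35 members were named. Values by library were set for the 12 with the lowest p-values and given for others too. Of each pathway list the 3 genes with the lowest p-values were to be named, and 1 result is not reported here. Promoter sequences are from RefSeq. Counting error is not the only error: p-values measure the spread between 3 mice per genotype.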

Additional observations from a re-analysis of the deposited data

How the results depend on the processing

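Of 490 values (35 genes under 14 alternatives), 453 kept their direction and their side of the threshold, 18 lost and 14 gained the threshold, and 5 changed sign without passing. The 5 were log2 fold changes of *Gpx3* and *Srxn1* without wild type replicate 1, *Gstt1* without wild type replicate 2, *Gsta2* without YAP2-5SA-∆C replicate 2 and *Gstm2* without YAP2-5SA-∆C replicate 3. Over the fits without a library they spanned -0.0683 to 0.298 (*Gpx3*), -0.0249 to 0.202 (*Srxn1*), -0.0581 to 0.0285 (*Gstt1*), -0.0634 to 0.450 (*Gsta2*) and -0.129 to 0.00609 (*Gstm2*). No gene changed sign with RLE or upper-quartile scaling. The antioxidant genes called numbered 7 with the likelihood-ratio test and 11 with DESeq2, against 3. All calls over the 15102 genes numbered 1568 and 1583, against 288, and 497 of 26579 without the count filter. Pathway genes called numbered 23, 22 and 11 under the same 3 alternatives, against 6. With each library left out, the ranges were 0 to 5 for the antioxidant genes, 0 to 816 for all genes and 0 to 16 for pathway genes. The cause was not tested.

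The labels do not say if the replicate numbers pair the mice. Same-numbered libraries correlated at -0.33, -0.23 and -0.05 in their deviations from the genotype means. With 3 libraries per genotype, these values cannot decide whether the numbers mark pairs. With the number as a replicate block, edgeR's quasi-likelihood test called 0 antioxidant, 0 pathway and 0 of all genes, where 14, 35 and 2949 reached 0.05 by the unadjusted p-value. With 3 mice per genotype, an exact permutation test of a single gene cannot go below 0.1.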
